A study of Homo sapiens with 12 samples.

Results

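The genes described here are a list of 39 that belong to the NRF2 response, to glutathione metabolism and to the enzymes that remove peroxides and superoxide. Members were measured where a probe set carried their symbol and no other, and where a gene had several, the brightest on average was taken. By that rule 35 members were measured among 11963 genes in all, and SRXN1, PRDX5, FTH1 and MGST1 were not analysed here. Expression was measured in 22RV1 and LnCaP, both established human prostate cancer cell lines, either untreated or kept for 24 h in 100 µM nicotine, supplied as nicotine tartrate, with 3 arrays in each of the 4 groups. The design set treated cells of each line against untreated cells of the same line, and it also allows the lines to be set against each other. The labels name no vehicle for the untreated cells and do not say whether replicates were separate cultures, so the p-values cover no more than array-to-array spread, which may be technical. Each line is a single cell line, so a difference between the lines is a difference between 2 lines and not between classes of tumor.

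NRF2, encoded by NFE2L2, is a transcription factor that KEAP1 holds for degradation in unstressed cells. Oxidants and electrophiles modify KEAP1, and NRF2 then binds antioxidant response elements with small MAF proteins and raises genes for glutathione synthesis, NADPH supply, quinone reduction, iron storage and drug export. Glutathione and thioredoxin pass electrons to the peroxidases and peroxiredoxins that clear hydrogen and lipid peroxides. In prostate cancer the family is best known for GSTP1, a glutathione transferase whose promoter is commonly methylated and silent in tumors.

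Values are log2 expression levels, on which a difference of 1 is a doubling, and levels of different genes cannot be set against each other because each comes from its own probe set. Array medians lay between 6.61 and 6.71. The 4 arrays with replicate number 3 deviated most from their group means. They held 48% of the residual sum of squares over all genes and 50.9% over the 35 members, more than either other number. All 7 measured luminal prostate markers were above the level of 5.23 that bounds the dimmest 25% of genes, KLK3 at 7.74 to 9.34 in 22RV1 and 12.67 to 13.14 in LnCaP. Below that level in both lines were both measured basal markers, 2 of 3 leukocyte markers (PTPRC and CD14), 2 of 3 endothelial markers (PECAM1 and CDH5) and 0 of 4 stromal ones. LUM, a stromal marker, was at 5.78 to 7.32 in 22RV1 and 2.84 to 3.5 in LnCaP, and VWF, an endothelial one, at 3.95 to 4.58 and 7.11 to 8.16. These genes differ with the line, and their part in the results was not tested.

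Most of the antioxidant genes differed between the lines, and none was called for nicotine. Between the untreated lines, 26 of the 35 members were called different, of which 18 were higher in LnCaP and 8 higher in 22RV1 (limma, adjusted p under 0.05 over all genes). The same contrast called 47.8% of all genes, 25.4% as higher in LnCaP and 22.4% as lower. At an unadjusted p under 0.05 there were 27 members, against 52.9% of all genes, and with the replicate number as a block 26 were called, against 52.6%. The median size of the difference was 0.43 over the members and 0.27 over all genes, and the signed medians were 0.28 and 0.05. In the nicotine-treated arrays, whose means do not enter the untreated difference although all 12 arrays set the shared estimate of spread, 22 members were called, 17 higher in LnCaP and 5 higher in 22RV1, against 49.9% of all genes, 26.2% higher and 23.7% lower. There 25 members had an unadjusted p under 0.05, against 55.3% of all genes, and the block called 23, against 54.7%. In both contrasts 20 members were called in the same direction, 16 higher in LnCaP and 4 higher in 22RV1, and 0 in opposite directions, against 41.9% of all genes called alike in both. The 4 that were higher in 22RV1 both times were GCLC, GSR, GPX4 and PGD. The lines did not overlap, in the same direction untreated and treated, for 23 members (65.7%), against 46.2% of all genes. The members were chosen with earlier results of these data known, and 32 of the 35 lay above the level that bounds the dimmest 25% of genes. The part of their choice and brightness in these counts and sizes was not tested.

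**Figure D1:**
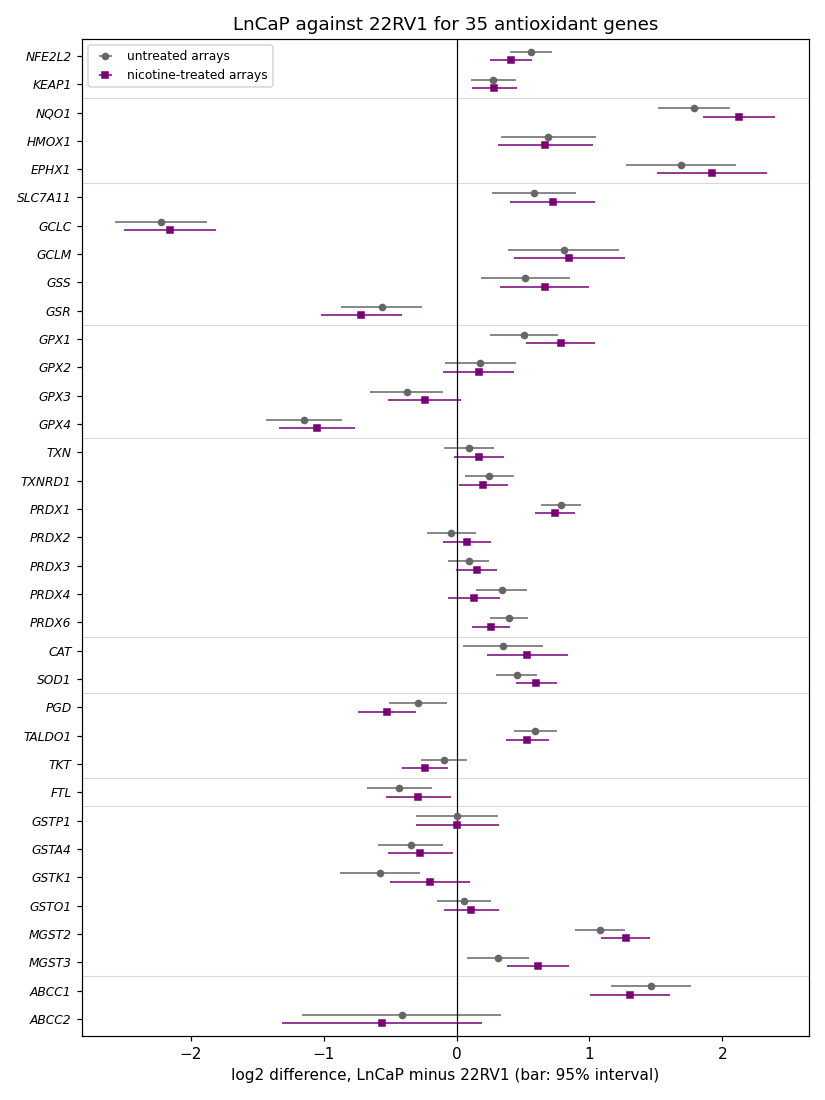
Log2 difference of LnCaP minus 22RV1 for each of the 35 measured members, grouped by role, in untreated arrays (circles) and nicotine-treated arrays (squares), with 95% intervals from the limma fit over 3 arrays per group. GCLC lies at -2.22 and -2.15 and NQO1 at 1.78 and 2.13, whereas the intervals of GSTP1 run from -0.30 to 0.32.

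The regulators themselves were higher in LnCaP. NFE2L2 read 9.14, 9.11 and 9.10 on untreated 22RV1 arrays 1, 2 and 3 and 9.67, 9.63 and 9.72 on untreated LnCaP arrays. With nicotine it read 9.32, 9.19 and 9.15 in 22RV1 and 9.69, 9.54 and 9.66 in LnCaP, so no array of a line overlapped the other line. The difference was 0.56 ± 0.07 untreated (SE, n = 3 per group, limma adjusted p = 4.62e-05) and 0.41 ± 0.07 treated (adjusted p = 0.000494). KEAP1, the adaptor that delivers NRF2 to its ubiquitin ligase, differed less. It read 9.54, 9.52 and 9.60 in untreated 22RV1 and 9.87, 9.77 and 9.85 in untreated LnCaP, and with nicotine 9.58, 9.50 and 9.61 in 22RV1 and 9.90, 9.92 and 9.72 in LnCaP. Its difference was 0.28 ± 0.08 untreated (limma adjusted p = 0.0101) and 0.28 ± 0.08 treated (adjusted p = 0.00827), with no overlap between lines.

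All 3 members of the group of quinone, heme and epoxide enzymes were higher in LnCaP in both contrasts, as were 2611 of all 11963 genes. NQO1, the quinone reductase used as a standard readout of NRF2, read 8.89, 8.76 and 9.23 in untreated 22RV1 and 10.67, 10.79 and 10.78 in untreated LnCaP. With nicotine the values were 8.53, 8.58 and 8.58 in 22RV1 and 10.85, 10.76 and 10.46 in LnCaP. LnCaP was thus 3.45-fold higher untreated (log2 1.78 ± 0.13, SE, n = 3 per group, limma adjusted p = 2.19e-07) and 4.36-fold higher treated (log2 2.13 ± 0.13, adjusted p = 4.27e-08). The dimmer probe sets of NQO1 gave untreated differences of 1.77 and 1.67, close to the value of the brightest. EPHX1, the microsomal epoxide hydrolase, read 8.99, 8.90 and 8.89 in untreated 22RV1 and 10.25, 10.72 and 10.88 in untreated LnCaP, and with nicotine 8.93, 8.94 and 8.64 in 22RV1 and 10.31, 10.96 and 11.003 in LnCaP. In LnCaP, array 1 was the lowest of its group both times. The line difference of EPHX1 was 1.69 ± 0.19 untreated (limma adjusted p = 1.31e-05) and 1.92 ± 0.19 treated (adjusted p = 4e-06). HMOX1, which breaks down heme, read 5.57, 5.29 and 5.75 in untreated 22RV1 and 6.37, 5.99 and 6.32 in untreated LnCaP, and with nicotine 5.60, 5.58 and 5.67 in 22RV1 and 6.21, 6.01 and 6.64 in LnCaP. The lines did not overlap, and the difference was 0.69 ± 0.16 untreated (limma adjusted p = 0.0036) and 0.67 ± 0.16 treated (adjusted p = 0.00424). The signal of HMOX1 was low, with a mean of 5.92 over all arrays against a lowest array median of 6.61. Without detection calls, these levels do not say whether the HMOX1 transcript was present in either line.

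All 5 genes of glutathione synthesis and recycling differed between the lines in both contrasts, against 41.9% of all genes called alike in both. The subunits of the first enzyme of glutathione synthesis differed in opposite directions. Glutamate-cysteine ligase joins glutamate to cysteine, with GCLC as the catalytic and GCLM as the modifier subunit. GCLC read 10.06, 10.55 and 10.01 in untreated 22RV1 and 8.14, 7.88 and 7.94 in untreated LnCaP, and with nicotine 10.06, 10.48 and 9.94 in 22RV1 and 8.03, 8.03 and 7.95 in LnCaP. The highest LnCaP array thus lay more than 1 log2 unit below the lowest 22RV1 array, and 22RV1 was 4.66-fold higher untreated (log2 -2.22 ± 0.16, SE, n = 3 per group, limma adjusted p = 2.57e-07) and 4.45-fold higher treated (log2 -2.15 ± 0.16, adjusted p = 3.12e-07). The dimmer GCLC probe set gave -1.83 untreated and -1.71 treated. GCLM went the other way, with 8.30, 8.44 and 9.10 in untreated 22RV1 and 9.45, 9.37 and 9.45 in untreated LnCaP, and with nicotine 8.18, 8.49 and 8.72 in 22RV1 and 9.32, 9.11 and 9.50 in LnCaP. Array 3 was the highest of both 22RV1 groups, yet no 22RV1 array reached a LnCaP array of the same treatment. LnCaP was 1.75-fold higher untreated (log2 0.81 ± 0.19, limma adjusted p = 0.00384) and 1.80-fold higher treated (log2 0.85 ± 0.19, adjusted p = 0.00265).

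The promoters of this pair are shown because the genes encode subunits of a single enzyme and differed in opposite directions. The windows run from 250 bases before to 50 bases after the start site in RefSeq, build GRCh38.p14, written 5′ to 3′ along the gene. Capitals mark matches to TGACNNNGC, the core of the antioxidant response element, searched on both strands. The core can overlap an AP-1 site, whose letters TGACTCA share its first bases.
GCLC, minus strand, chr6:53545052-53545351: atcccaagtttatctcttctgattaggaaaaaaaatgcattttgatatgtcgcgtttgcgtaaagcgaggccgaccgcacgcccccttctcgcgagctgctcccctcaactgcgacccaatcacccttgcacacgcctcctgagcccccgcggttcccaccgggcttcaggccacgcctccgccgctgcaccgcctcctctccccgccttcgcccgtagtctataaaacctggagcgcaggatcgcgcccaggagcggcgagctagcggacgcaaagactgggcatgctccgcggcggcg
GCLM, minus strand, chr1:93909381-93909680: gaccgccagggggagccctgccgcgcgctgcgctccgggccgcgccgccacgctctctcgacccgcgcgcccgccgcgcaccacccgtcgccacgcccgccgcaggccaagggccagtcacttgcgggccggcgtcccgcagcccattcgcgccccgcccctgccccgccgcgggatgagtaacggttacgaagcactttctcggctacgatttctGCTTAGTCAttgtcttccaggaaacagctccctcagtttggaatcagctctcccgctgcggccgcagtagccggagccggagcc
GCLM held 1 match, on the reverse strand, starting 34 bases before the start site, and the GCLC window held 0. Over the members, 29 had windows in the table and 10 had a match in at least 1 of them (KEAP1, EPHX1, GCLM, GPX2, TXNRD1, PGD, GSTP1, GSTA4, GSTO1 and MGST1), or 34.5%, against 16.1% of the 27305 genes in the table. Of the 39 member windows 11 held a match (28.2%), against 13.3% of all 35116 windows. By direction, a match was found for 3 of 8 members higher in LnCaP in both contrasts, 1 of 3 higher in 22RV1 in both, and 5 of the 15 other measured members with a window. A match describes letters only, and no match says only that these letters are not in this window.

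The remaining genes of this group were split as well. SLC7A11, the cystine importer, was higher in LnCaP by 0.58 ± 0.15 untreated (limma adjusted p = 0.00524) and 0.72 treated, with untreated values of 9.04, 8.98 and 8.95 in 22RV1 and 9.37, 9.44 and 9.90 in LnCaP. Its dimmer probe sets gave 0.76 and 1.70 untreated and 0.75 and 1.70 treated, so the direction of SLC7A11 was shared and the size was not. GSS, which adds glycine to complete glutathione, was higher in LnCaP by 0.52 ± 0.15 untreated (limma adjusted p = 0.0137) and 0.66 ± 0.15 treated (adjusted p = 0.00299). GSR, the reductase that regenerates glutathione, was higher in 22RV1. It read 10.58, 10.61 and 10.77 in untreated 22RV1 and 9.88, 9.97 and 10.42 in untreated LnCaP, and with nicotine 10.58, 10.52 and 10.75 in 22RV1 and 9.75, 9.86 and 10.10 in LnCaP. LnCaP array 3 came nearest to 22RV1 both times, and the difference was -0.56 ± 0.14 untreated (limma adjusted p = 0.005) and -0.72 ± 0.14 treated (adjusted p = 0.000913). The untreated call of GSS was lost without untreated 22RV1 replicate 1 or 2 or untreated LnCaP replicate 3, with an adjusted p of up to 0.0615. The other probe set of GSS, nearly as bright, gave 0.67 untreated (limma adjusted p = 0.000723 over all probe sets) and 0.81 treated (0.000155).

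**Figure D2:**
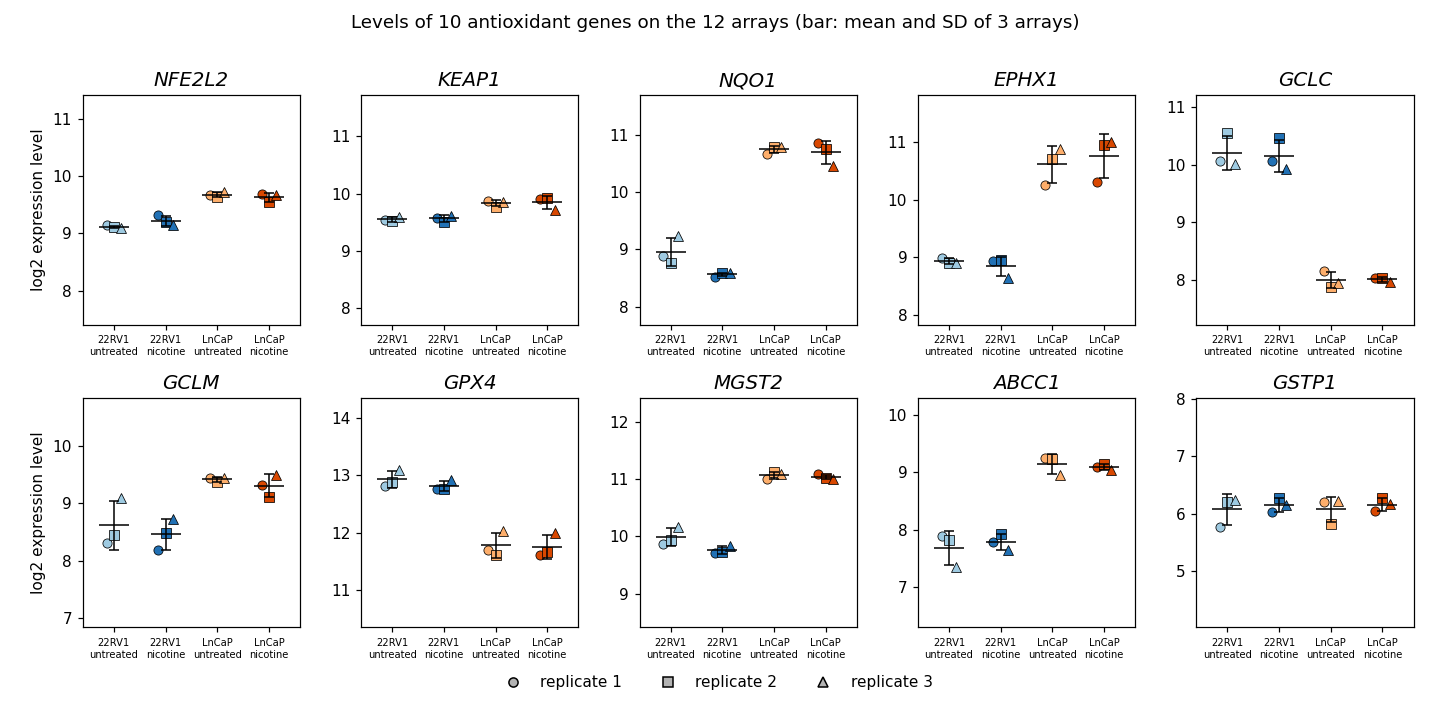
Log2 levels of 10 members on every array, by group, with replicate numbers as symbols and the mean and SD of the 3 arrays of a group as bars; every panel spans the same range of log2 units. GCLC and GPX4 are higher in 22RV1, NFE2L2, KEAP1, NQO1, EPHX1, GCLM, MGST2 and ABCC1 are higher in LnCaP, and GSTP1 lies between 5.77 and 6.27 in all groups.

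The glutathione peroxidases were not shifted to one side. GPX4, the selenoenzyme that reduces lipid peroxides and guards against ferroptosis, read 12.82, 12.88 and 13.10 in untreated 22RV1 and 11.71, 11.62 and 12.03 in untreated LnCaP, and with nicotine 12.75, 12.76 and 12.91 in 22RV1 and 11.60, 11.67 and 11.998 in LnCaP. It was 2.22-fold higher in 22RV1 untreated (log2 -1.15 ± 0.13, limma adjusted p = 1.5e-05) and 2.07-fold treated (log2 -1.05 ± 0.13, adjusted p = 2.84e-05), without overlap. GPX1, the abundant cytosolic form, was higher in LnCaP by 0.51 ± 0.12 untreated (limma adjusted p = 0.00325) and 0.78 ± 0.12 treated (adjusted p = 0.000129). GPX3, the secreted form, was dim, with a mean below 5.23. Its untreated difference of -0.37 ± 0.13 was called (limma adjusted p = 0.0271) and its treated one of -0.24 was not (adjusted p = 0.14). The untreated call of GPX3 was lost with median centring, in a fit of the compared groups alone, without the arrays numbered 3 (adjusted p up to 0.0661), and without untreated 22RV1 replicate 2 or 3 or untreated LnCaP replicate 2 (up to 0.12). The other probe set of GPX3, dimmer still, gave -1.21 untreated (limma adjusted p = 0.00163 over all probe sets) and -0.42 treated (0.192). GPX2, the gastrointestinal form and an NRF2 target, was also dim, and its differences of 0.18 and 0.17 were not called.

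Among the 7 measured genes of the thioredoxin and peroxiredoxin system, 4 were called higher in LnCaP untreated, against 25.4% of all genes. Of these, 2 were also called with nicotine, PRDX1 and PRDX6, against 2611 of all 11963 genes called higher in both contrasts. PRDX1, a cytosolic peroxiredoxin, read 12.34, 12.32 and 12.24 in untreated 22RV1 and 13.04, 13.14 and 13.07 in untreated LnCaP, and with nicotine 12.31, 12.35 and 12.26 in 22RV1 and 13.09, 13.04 and 13.01 in LnCaP. The arrays of each line lay close together for PRDX1, and LnCaP was 1.73-fold higher untreated (log2 0.79 ± 0.07, limma adjusted p = 1.39e-06) and 1.67-fold treated (log2 0.74 ± 0.07, adjusted p = 2.14e-06). PRDX6, which acts with glutathione, differed by 0.39 ± 0.07 untreated (limma adjusted p = 0.000333) and 0.26 treated (adjusted p = 0.00541). The peroxiredoxin of the endoplasmic reticulum, PRDX4, differed by 0.34 untreated (limma adjusted p = 0.00672) and by 0.13 treated (adjusted p = 0.244). TXNRD1, the cytosolic thioredoxin reductase, differed by 0.25 ± 0.08 untreated (limma adjusted p = 0.0302) and 0.20 treated (adjusted p = 0.0684, or 0.0251 with median centring). The untreated call of TXNRD1 was lost without untreated 22RV1 replicate 1 or 2 or untreated LnCaP replicate 3 (adjusted p up to 0.111) and without the arrays numbered 3 (0.0516). The other members of the system were not called in either contrast. PRDX2, a cytosolic peroxiredoxin, read 12.26, 12.33 and 12.48 in untreated 22RV1 and 12.29, 12.41 and 12.26 in untreated LnCaP, and with nicotine 12.21, 12.21 and 12.39 in 22RV1 and 12.38, 12.34 and 12.33 in LnCaP. Its difference of -0.04 had a 95% interval of -0.23 to 0.14. One of its 3 dimmer probe sets was lower in LnCaP with nicotine (-0.35, limma adjusted p = 0.00875 over all probe sets), and the others gave 0.10 and 0.03 there. The mitochondrial PRDX3 read 12.07, 12.05 and 12.09 in untreated 22RV1 and 12.19, 12.22 and 12.07 in untreated LnCaP, and with nicotine 11.95, 12.03 and 12.08 in 22RV1 and 12.21, 12.17 and 12.13 in LnCaP. Its untreated difference was 0.09 (95% interval -0.06 to 0.24), and its treated one of 0.15 was called only with median centring or array weights (adjusted p from 0.0289). Thioredoxin itself, TXN, differed by 0.09 (95% interval -0.10 to 0.28) untreated and by 0.17 treated (limma adjusted p = 0.133). The treated difference of TXN passed with median centring and with the mean of its probe sets (adjusted p from 0.025), and its dimmer probe set gave 0.31 (0.0302 over all probe sets).

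The superoxide dismutase gene SOD1 was higher in LnCaP in both contrasts and catalase in the treated one. SOD2, listed among the other pathway genes, had no probe set with that symbol alone and was not analysed. SOD1, the copper-zinc dismutase, was higher in LnCaP by 0.45 ± 0.07 untreated (limma adjusted p = 0.000189) and 0.60 ± 0.07 treated (adjusted p = 1.76e-05). CAT, which splits hydrogen peroxide, just missed the threshold untreated (0.35 ± 0.14, limma adjusted p = 0.0551) and passed it treated (0.53 ± 0.14, adjusted p = 0.00653). Array 3 of untreated 22RV1, at 11.63 against 11.24 and 11.31 on the others, was the nearest to LnCaP, and CAT passed untreated without that array or without array 3 of treated 22RV1 (adjusted p from 0.0157), and in 5 of 8 other alternatives. The second probe set of CAT gave 0.58 untreated (limma adjusted p = 0.0192 over all probe sets) and its dim one 0.02 (0.931). The pentose phosphate enzymes, which supply NADPH and ribose, were split. TALDO1, transaldolase, was higher in LnCaP by 0.59 ± 0.07 untreated (limma adjusted p = 3.13e-05) and 0.53 treated (adjusted p = 6.63e-05). PGD, the NADPH-producing phosphogluconate dehydrogenase, was higher in 22RV1. It read 10.86, 10.83 and 10.98 in untreated 22RV1 and 10.56, 10.48 and 10.76 in untreated LnCaP, and with nicotine 10.91, 10.81 and 11.05 in 22RV1 and 10.27, 10.43 and 10.51 in LnCaP. The lines did not overlap, and untreated LnCaP array 3 came nearest to 22RV1. Its difference was -0.29 ± 0.10 untreated (limma adjusted p = 0.0298) and -0.52 ± 0.10 treated (adjusted p = 0.00077). The untreated call of PGD was lost with median centring (adjusted p = 0.0864) and without untreated 22RV1 replicate 1 or 3 or untreated LnCaP replicate 1 or 2 (up to 0.115). TKT, transketolase, was at -0.09 untreated and called lower in LnCaP with nicotine (-0.24 ± 0.08, limma adjusted p = 0.0265). The call of TKT was lost with median centring and without the arrays numbered 3 (adjusted p up to 0.116), and without treated 22RV1 replicate 1 or 3 or treated LnCaP replicate 3 (up to 0.108).

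FTL, the ferritin light chain, was higher in 22RV1 untreated (LnCaP minus 22RV1, -0.43 ± 0.11, limma adjusted p = 0.00689). With nicotine it was at -0.29 (adjusted p = 0.0501), which passed in 5 of 8 alternatives, among them the replicate block (adjusted p = 0.00633), and without untreated 22RV1 replicate 3, treated 22RV1 replicate 2 or treated LnCaP replicate 3 (from 0.0141). The other probe set of FTL gave -0.57 untreated and -0.44 treated (limma adjusted p = 0.018 over all probe sets). Of the export pumps, ABCC1, which carries glutathione conjugates out of the cell, was higher in LnCaP. ABCC1 read 7.89, 7.81 and 7.34 in untreated 22RV1 and 9.25, 9.23 and 8.95 in untreated LnCaP, and with nicotine 7.79, 7.92 and 7.65 in 22RV1 and 9.10, 9.13 and 9.04 in LnCaP. The lines stood more than 1 log2 unit apart on every array, and LnCaP was 2.75-fold higher untreated (log2 1.46 ± 0.14, SE, n = 3 per group, limma adjusted p = 2.87e-06) and 2.47-fold treated (log2 1.30 ± 0.14, adjusted p = 6.9e-06). ABCC2, the related pump of the canalicular membrane, was dim. Its values were 4.64, 4.72 and 5.64 in untreated 22RV1 and 4.73, 4.24 and 4.80 in untreated LnCaP, and with nicotine 4.62, 4.87 and 6.02 in 22RV1 and 4.34, 4.69 and 4.80 in LnCaP. The 22RV1 arrays numbered 3 were the highest, and the difference of -0.41 ± 0.34 was not called (limma adjusted p = 0.363).

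The glutathione transferases ranged from MGST2, with more than a doubling between lines, to GSTP1, with hardly any difference. MGST2, a microsomal transferase, read 9.87, 9.94 and 10.16 in untreated 22RV1 and 11.000, 11.12 and 11.08 in untreated LnCaP, and with nicotine 9.71, 9.73 and 9.84 in 22RV1 and 11.08, 11.02 and 11.01 in LnCaP. It was 2.11-fold higher in LnCaP untreated (log2 1.08 ± 0.09, limma adjusted p = 6.37e-07) and 2.41-fold treated (log2 1.27 ± 0.09, adjusted p = 1.35e-07). MGST3, another microsomal form, was higher in LnCaP by 0.31 untreated (adjusted p = 0.0296) and 0.61 treated (adjusted p = 0.000404). The untreated call of MGST3 was lost with quantile normalization (adjusted p = 0.0509) and without untreated 22RV1 replicate 1 or 2 or untreated LnCaP replicate 3 (up to 0.123). GSTK1, the mitochondrial and peroxisomal form, was higher in 22RV1 untreated (-0.58 ± 0.14, limma adjusted p = 0.00401) and was not called treated (-0.20, adjusted p = 0.25). The change of its line difference with nicotine was itself not called (0.37 ± 0.19, adjusted p = 0.829). GSTA4, known for conjugating the lipid aldehyde hydroxynonenal, was higher in 22RV1 untreated (-0.35, adjusted p = 0.0228). With nicotine the lines did not overlap for GSTA4 either, and the difference of -0.27 missed the threshold (adjusted p = 0.0628) but passed with quantile normalization (0.0233) and without treated 22RV1 replicate 2 or untreated LnCaP replicate 3 (from 0.0381). The untreated call of GSTA4 was lost with median centring and without untreated 22RV1 replicate 1 or 2 or untreated LnCaP replicate 3, with adjusted p up to 0.1. GSTO1, an omega-class transferase, read 10.81, 10.91 and 11.05 in untreated 22RV1 and 10.94, 10.93 and 11.08 in untreated LnCaP, and with nicotine 10.66, 10.87 and 10.97 in 22RV1 and 10.93, 10.94 and 10.97 in LnCaP. The groups of GSTO1 overlapped, and its untreated difference was 0.06 (95% interval -0.15 to 0.26).

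GSTP1 had the smallest line difference of all 35 members, although the rule that chose the members names it as one that differs between prostate lines. It read 5.77, 6.21 and 6.24 in untreated 22RV1 and 6.20, 5.83 and 6.21 in untreated LnCaP, and with nicotine 6.03, 6.27 and 6.15 in 22RV1 and 6.04, 6.27 and 6.16 in LnCaP. All 12 values lay below the median of their array, and the 4 groups overlapped. The LnCaP minus 22RV1 difference was 0.01 ± 0.14 untreated (SE, n = 3 per group, limma adjusted p = 0.976, 95% interval -0.30 to 0.32) and 0.01 ± 0.14 treated (adjusted p = 0.974). The deposited values carry no detection calls, so these levels do not say whether the transcript was present. The GSTP1 window is shown because it is the promoter known for methylation in this cancer. Among the member windows it alone held the full letters TGACTCAGC, present in 0.561% of all windows, with the capitals marking that match.
GSTP1, plus strand, chr11:67583562-67583861: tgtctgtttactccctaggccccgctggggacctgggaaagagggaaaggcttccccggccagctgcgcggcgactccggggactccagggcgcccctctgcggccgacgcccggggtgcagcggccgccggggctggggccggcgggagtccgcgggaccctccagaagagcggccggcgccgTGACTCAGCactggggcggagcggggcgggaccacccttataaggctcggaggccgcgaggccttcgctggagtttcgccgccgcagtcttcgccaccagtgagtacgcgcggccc
The match started 66 bases before the start site, and the window held 36 CpG dinucleotides. Its first bases are also those of an AP-1 site.

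Nicotine moved none of the antioxidant genes past the threshold in either line. Limma called 0 of the 35 members in 22RV1, against 0% of all genes, and 0 in LnCaP, against 0.694% of all genes. It also called 0 for the average of both lines (0.376% of all genes, 0.0836% higher and 0.293% lower) and 0 for the difference between them (0% of all genes). At an unadjusted p under 0.05 there were 4 members in 22RV1, against 5.29% of all genes, and 1 in LnCaP, against 12.2% of all genes. For the average there were 3, against 11.6%, and for the difference 0, against 6.26%. With the replicate number as a block, 0 members were called in each of these contrasts, while that fit called 5.39% of all genes in LnCaP, 0% in 22RV1, 3.31% for the average and 0.159% for the difference. The smallest adjusted p of a member in LnCaP was then 0.0977. The median change of the members was -0.05 in 22RV1 and -0.03 in LnCaP, and the median size was 0.08 and 0.06, against 0.08 and 0.09 over all genes. Each line was set against its own untreated arrays, so the differences share no arrays, but their errors and p-values rest on one spread estimated from all 12.

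**Figure D3:**
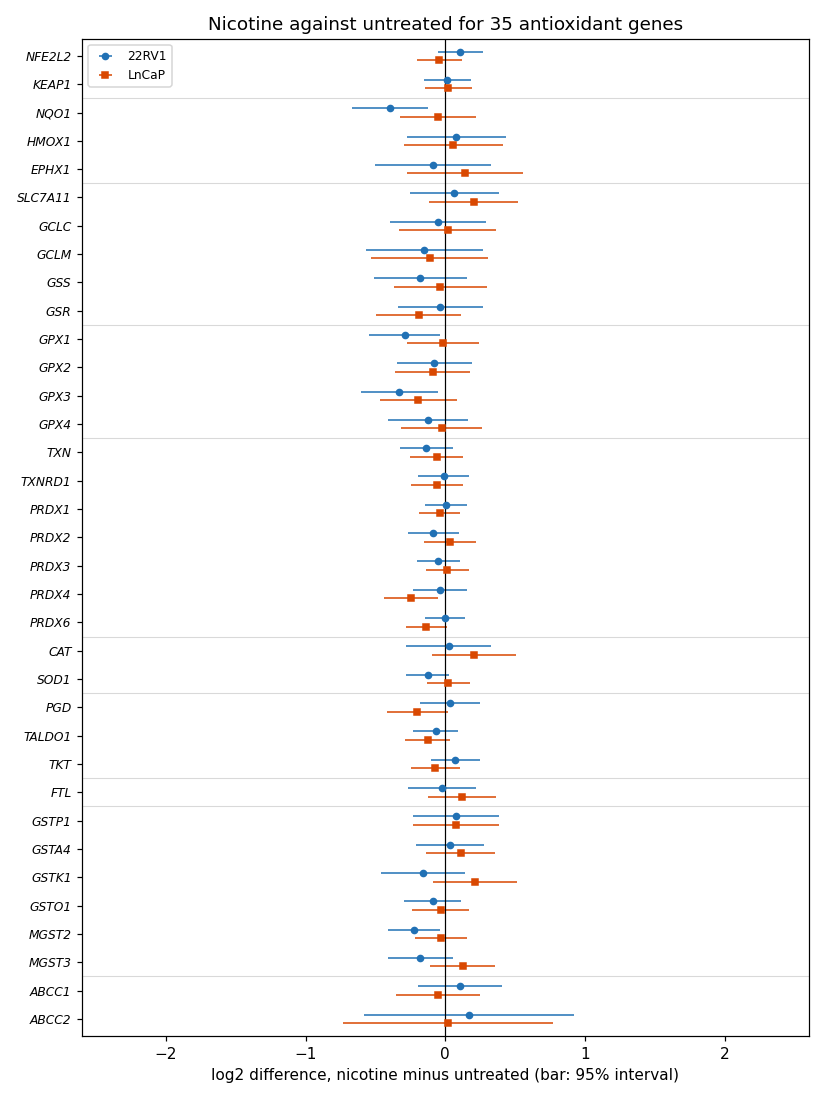
Log2 difference of nicotine minus untreated for the 35 measured members in 22RV1 (circles) and LnCaP (squares), grouped by role, with 95% intervals from the limma fit over 3 arrays per group. The estimates run from -0.40 to 0.17 in 22RV1 and from -0.25 to 0.22 in LnCaP, and the widest intervals are those of ABCC2.

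Among genes used as readouts of NRF2, HMOX1 and SLC7A11 had estimates above 0 in both lines and NQO1, GCLM and TXNRD1 below 0. GCLC was below 0 in 22RV1 and above 0 in LnCaP, and none of these genes was called. NQO1 was at -0.40 after nicotine in 22RV1 (95% interval -0.67 to -0.12) and -0.05 in LnCaP (-0.33 to 0.22). HMOX1 was at 0.08 after nicotine in 22RV1 (95% interval -0.27 to 0.43) and 0.06 in LnCaP (-0.30 to 0.41). GCLM was at -0.15 (-0.57 to 0.27) and -0.11 (-0.53 to 0.31), and TXNRD1 at -0.01 (-0.20 to 0.17) and -0.06 (-0.24 to 0.13). SLC7A11 was at 0.06 (-0.25 to 0.38) in 22RV1 and 0.20 (-0.11 to 0.52) in LnCaP, though its dimmest probe set gave -0.02 in each line. GCLC was at -0.05 (-0.40 to 0.29) and 0.02 (-0.33 to 0.36). The intervals of TXNRD1 were the narrowest of these, and those of GCLM the widest. All 4 glutathione peroxidases had estimates below 0 in both lines, from -0.33 to -0.08 in 22RV1 and from -0.19 to -0.02 in LnCaP, and none was called. Of all 11963 genes, 6252 had estimates below 0 in 22RV1 and 6029 in LnCaP. The sign also depended on the probe set, as the dimmer one of GPX3 gave -0.61 in 22RV1 and 0.18 in LnCaP. NFE2L2 was at 0.11 (-0.05 to 0.27) in 22RV1 and -0.04 (-0.20 to 0.12) in LnCaP, KEAP1 at 0.01 and 0.02, and GSTP1 at 0.08 and 0.08.

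In 22RV1, the smallest p-values of members belonged to NQO1, MGST2 and GPX3, all with lower values after nicotine, and none passed. The untreated NQO1 values of 8.89, 8.76 and 9.23 did not overlap the treated ones of 8.53, 8.58 and 8.58, with array 3 the highest of the untreated. The change was -0.40 ± 0.13 (SE, n = 3 per group, unadjusted p = 0.00835, limma adjusted p = 0.879) and -0.05 in LnCaP. MGST2 was at -0.23 ± 0.09 in 22RV1 (limma adjusted p = 0.88), again without overlap, and GPX3, with values of 5.0, 5.23 and 5.42 untreated and 4.78, 5.06 and 4.83 treated, at -0.33 ± 0.13 (adjusted p = 0.89). GPX3 was the member with a lower treated array in 6 of 6 same-numbered pairs, a pattern that 5.96% of all genes share, while 0 members were higher in all pairs (4.82% of all genes), although its second LnCaP pair differed by only -0.002. The pattern belongs to the brighter probe set of GPX3, as the dimmer one was on average higher after nicotine in LnCaP (0.18). In 22RV1 the treated and untreated arrays did not overlap for 6 members, NFE2L2 upward and NQO1, GPX1, SOD1, MGST2 and MGST3 downward. That is 17.1% of the members, against 11.9% of all genes, of which 5.42% were higher and 6.47% lower.

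In LnCaP, the smallest p-values belonged to PRDX4, PRDX6 and PGD, again with lower values after nicotine and none called. PRDX4 read 11.96, 11.95 and 12.10 untreated and 11.79, 11.63 and 11.84 treated in LnCaP, without overlap, while in 22RV1 it read 11.52, 11.68 and 11.78 and 11.62, 11.60 and 11.65. Its change was -0.25 ± 0.09 in LnCaP (SE, n = 3 per group, unadjusted p = 0.017, limma adjusted p = 0.255) and -0.04 in 22RV1. PRDX6 read 12.52, 12.57 and 12.61 untreated and 12.41, 12.46 and 12.43 treated in LnCaP, at -0.14 ± 0.07 (limma adjusted p = 0.449). The other probe set of PRDX6, with a mean level of 11.33, gave only -0.03 in LnCaP. PGD was at -0.20 ± 0.10 (limma adjusted p = 0.463). LnCaP groups did not overlap for 4 members, CAT upward and PRDX4, PRDX6 and TALDO1 downward, or 11.4% of the members against 17.2% of all genes, of which 7.1% were higher and 10.1% lower.

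The nicotine effect was not shown to differ between the lines for any member. The smallest p-values for the difference belonged to MGST3, NQO1 and GSTK1. For each, the estimated change with nicotine was higher in LnCaP than in 22RV1, whichever line had the higher level. MGST3 read 10.27, 10.36 and 10.47 untreated and 10.06, 10.26 and 10.25 treated in 22RV1, where every treated array was lower. In LnCaP it read 10.55, 10.64 and 10.86 and 10.67, 10.78 and 10.96, where each treated array was higher than the untreated one of its number. The difference of effects was 0.30 ± 0.15 for MGST3 (SE, limma adjusted p = 0.829) and 0.34 ± 0.18 for NQO1 (adjusted p = 0.829). GSTK1 was also lower in each treated array of 22RV1 and higher in each of LnCaP than in the untreated array of its number, but its groups overlapped, with 9.30, 9.33 and 9.63 untreated and 9.11, 9.14 and 9.53 treated in 22RV1 and 8.89, 9.01 and 8.63 and 9.0, 9.17 and 9.0 in LnCaP.

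The other genes of the pathway were taken from lists of 74 symbols, of which 65 were measured. Between the untreated lines 40 were called, 26 higher in LnCaP and 14 higher in 22RV1, and 38 were called in the same direction in treated arrays too, against 47.8% and 41.9% of all genes. Of the partners and degraders of NRF2, 9 of 14 were called. MAFF, a small MAF partner, was higher in 22RV1 (LnCaP minus 22RV1, -1.32 ± 0.14, limma adjusted p = 6.42e-06), whereas SQSTM1, an autophagy receptor that competes for KEAP1, was higher in LnCaP by 1.23 ± 0.10 (adjusted p = 1.13e-06) and GSK3B, a kinase that marks NRF2 for degradation, by 1.02. Of the NADPH and target enzymes, 15 of 21 were called. ME1, the malic enzyme that yields NADPH, read 7.04, 6.49 and 6.51 in untreated 22RV1 and 10.70, 10.80 and 10.80 in untreated LnCaP, a difference of 4.09 ± 0.14 (limma adjusted p = 4.72e-10). The export pump ABCC4 differed by 5.14 ± 0.20 (adjusted p = 1.26e-09). AKR1C3, an aldo-keto reductase that also reduces androgen precursors, went the other way, with 10.06, 9.93 and 11.45 in untreated 22RV1 and 4.13, 4.07 and 4.22 in untreated LnCaP (log2 -6.34 ± 0.49, limma adjusted p = 4.9e-07). The LnCaP values of AKR1C3 lay below the dim level of 5.23, and without detection calls the fitted size is a difference in signal and not a measured ratio of transcript. AKR1C genes are near-identical copies, and probe sets may share signal between them. The pathway genes were thus split between the lines, with ME1, ABCC4, NQO1 and SQSTM1 higher in LnCaP and AKR1C3, GCLC and MAFF higher in 22RV1.

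Of the other glutathione transferases 8 of 11 were called between the untreated lines, 4 in each direction. Of all genes 47.8% were called, 25.4% higher in LnCaP and 22.4% lower. GSTM2 was higher in 22RV1 (-2.40 ± 0.16, limma adjusted p = 1.25e-07), and GSTA1 (2.29 ± 0.25, adjusted p = 1.12e-05) and GSTM3 (1.96 ± 0.20, adjusted p = 5.59e-06) were higher in LnCaP. The mu-class genes are close copies too, and their probe sets may not tell them apart. Of the antioxidant and repair enzymes 8 of 19 were called, against the same 47.8% of all genes. Among them were GPX7, a peroxidase of the endoplasmic reticulum whose LnCaP values also lay below the dim level, at -1.69, the methionine sulfoxide reductase MSRA at 1.37, and CCS, which loads copper into SOD1, at 0.62 ± 0.10 (limma adjusted p = 0.000214). After nicotine, limma called 0 of the 65 genes in 22RV1, in LnCaP, for the average and for the difference, with 4, 7, 8 and 2 at an unadjusted p under 0.05, against 5.29%, 12.2%, 11.6% and 6.26% of all genes. With the replicate block, 2 of the 65 were called in LnCaP, where that fit called 5.39% of all genes. GLRX2, a mitochondrial glutaredoxin, read 9.59, 9.54 and 10.15 untreated and 9.16, 8.98 and 9.46 treated in LnCaP and fell (log2 -0.56, SE with the block 0.09, adjusted p = 0.0115 with the block and 0.138 without). MSRB2, a mitochondrial methionine sulfoxide reductase, read 10.82, 10.96 and 10.57 untreated and 11.21, 11.20 and 10.95 treated and rose (0.34, adjusted p = 0.0269 with the block and 0.169 without). For the average of both lines the block fit called 2, against 3.31% of all genes, namely GLRX2 (-0.34, adjusted p = 0.0305) and CBR3, a carbonyl reductase (-0.33, adjusted p = 0.0419), both lower.

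Some members followed the replicate number. In all 4 groups array 3 was the highest for 8 members, namely GSS, GSR, GPX4, PRDX4, PGD, FTL, GSTO1 and ABCC2, or 22.9% of the members against 8.23% of all genes. It was the lowest in all 4 groups for 1 member, ABCC1, or 2.86% against 9.15% of all genes. Averaged over the 35 members, array 3 lay above its group mean by 0.10 in untreated and 0.05 in treated 22RV1 and by 0.06 and 0.05 in untreated and treated LnCaP. For GSS the arrays 1, 2 and 3 read 9.76, 9.76 and 10.13 in untreated 22RV1, 9.54, 9.74 and 9.84 in treated 22RV1, 10.26, 10.26 and 10.69 in untreated LnCaP and 10.19, 10.32 and 10.58 in treated LnCaP. For FTL they read 12.70, 12.63 and 12.84 in untreated 22RV1, 12.69, 12.54 and 12.88 in treated 22RV1, 12.26, 12.24 and 12.38 in untreated LnCaP and 12.27, 12.36 and 12.62 in treated LnCaP. Array 3 was the top value each time. The labels say nothing of what sets number 3 apart, and every group holds 1 such array. Without the 4 arrays numbered 3, the counts of called members were 25 untreated and 22 treated between the lines and 0 for each nicotine contrast.

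**Figure D4:**
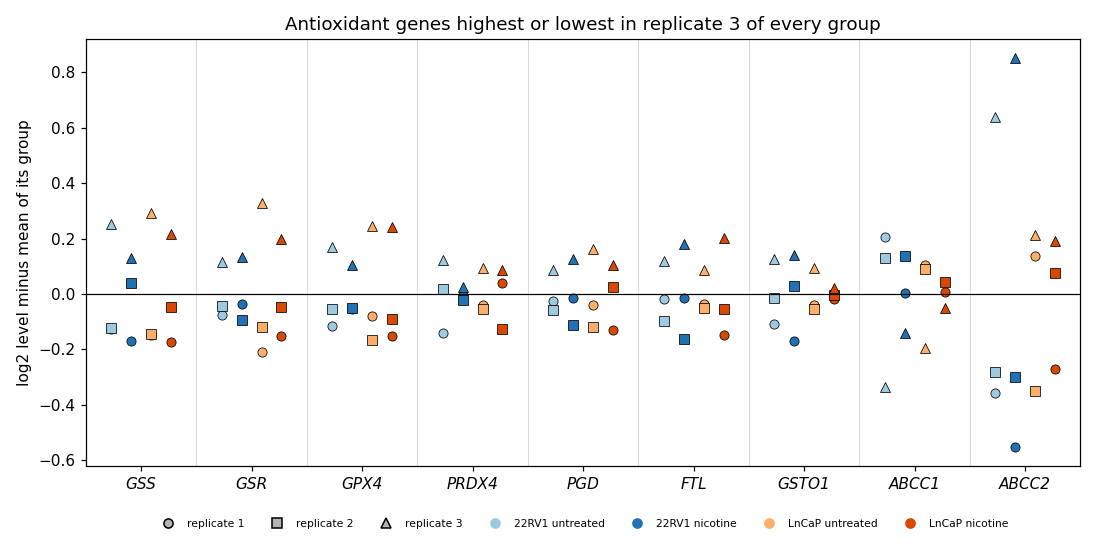
Log2 level minus the mean of its group for the 9 members whose array numbered 3 (triangles) was the highest or the lowest in all 4 groups, with groups as colours. ABCC2 in 22RV1 shows the widest spread, and ABCC1 is the member with array 3 lowest in every group.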

How the data were processed

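Per the labels, total RNA extracted by TRIzol was turned into biotinylated cRNA for Affymetrix arrays of a single colour. Expression on 12 arrays came as the authors' deposited log2 values, 22277 probe sets in all. The log base was read from their range; their normalization, software and centring are not given in the sources. No filter was applied, and precision is limited by how few arrays there are. Symbols came from the platform annotation: 19070 probe sets had 1 symbol, 1043 had several and 2164 had none. Where a gene had several (4310 genes), its brightest was used. A single limma 3.58.1 model in R 4.3.3 covered the 4 groups (group means, lmFit and eBayes, two-sided), with Benjamini-Hochberg adjustment over 11963 genes in each of 6 contrasts and calls at an adjusted p under 0.05. The fit was also run on simulated data, but their noise was independent between arrays, unlike that of the same-numbered arrays here. No error rate is drawn from that run. Intervals are the 95% intervals of that fit.

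The members and lists were chosen with earlier results of these data known. Named members were NFE2L2, KEAP1, NQO1, HMOX1 and GSTP1, the up to 6 highest in each line among those called in both contrasts between lines, the 4 with the smallest untreated difference, and the 3 smallest p-values per nicotine contrast (each line and the difference). From each other list the 3 largest called untreated differences were named; every other member is given by its value, and GLRX2, MSRB2 and CBR3 were named after their values were seen. Within a line, deviations from the group means of same-numbered arrays correlated with r = 0.465, 0.454 and 0.64 in 22RV1 and 0.371, 0.225 and 0.599 in LnCaP over genes. Untreated array 2 with treated array 1 gave 0.27 in each line, above the 0.225 of number 2 in LnCaP. Untreated array 1 with treated array 2 gave 0.204 in 22RV1 and 0.046 in LnCaP. The numbers, taken from the labels, were used as pairs within a line, and these values do not settle the pairing of numbers 1 and 2. The values in the text come from the fit without a block, and the replicate block is the alternative. Between the lines the same-numbered r was 0.067 to 0.253, and the block there is an alternative only. Promoter windows came from RefSeq.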

Additional observations from a re-analysis of the deposited data

How the results depend on the processing

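The alternatives were a replicate block, quantile normalization, median centring, leaving out genes below the 25th percentile (32 members remained), the mean of all probe sets of a gene, array weights, a fit of the compared groups alone (the average and the difference need all groups, so it could not be run for them), leaving out the arrays numbered 3, and leaving out each array in turn. In every one of them 0 members were called for nicotine. Leaving out 1 array gave 21 to 27 called members between the untreated lines and 21 to 24 between the treated lines, and the other alternatives gave 24 to 27 and 22 to 24. The replicate block gave 26, 23 and 0 called members between untreated lines, between treated lines and for each nicotine contrast, and changed no call of a member other than that of FTL between treated lines. Of the 26 members called untreated, 20 were called in every alternative, and of the 22 called treated, 21 were. With all arrays in the fit or without those numbered 3, the sign turned for 8 values of named members, none of them called. These were KEAP1 after nicotine in 22RV1 with median centring (-0.0031), NQO1 (0.0802) and HMOX1 (-0.0732) after nicotine in LnCaP without the arrays numbered 3, GSTP1 between untreated lines with array weights (-0.0791), PRDX2 between untreated lines with median centring (0.0206) or without the arrays numbered 3 (0.0525) and between treated lines with the mean of all probe sets (-0.0338), and GSTO1 between untreated lines with quantile normalization (-0.0049). Without 1 array the nicotine difference in 22RV1 ranged from -0.0109 to 0.0441 for KEAP1, -0.0439 to 0.1874 for HMOX1 and -0.0766 to 0.162 for GSTP1. In LnCaP it ranged from -0.0705 to 1e-04 for NFE2L2, -0.0173 to 0.0851 for KEAP1, -0.1348 to 0.0617 for NQO1, -0.1202 to 0.1956 for HMOX1 and -0.0484 to 0.1451 for GSTP1. The untreated line difference ranged from -0.1474 to 0.1324 for GSTP1 and -0.0897 to 0.0224 for PRDX2, and the treated one from -0.0529 to 0.0673 for GSTP1. The cause of these turns was not tested.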

Other observations

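The AKR1C genes, aldo-keto reductases that NRF2 is known to raise, followed the replicate number in 22RV1, a pattern singled out after the values were seen. AKR1B10, another such reductase but below the dim level, did not, at 3.93, 4.13 and 3.94 in untreated and 3.93, 4.21 and 3.88 in treated 22RV1. AKR1C1 read 8.70, 8.85 and 10.89 in untreated and 8.67, 8.58 and 11.12 in treated 22RV1 on arrays 1, 2 and 3. AKR1C2 read 8.24, 8.21 and 10.17 and 7.85, 7.96 and 10.45, and AKR1C3 read 10.06, 9.93 and 11.45 and 9.92, 9.83 and 11.82. In each of these 6 groups of values array 3 was the highest by more than 1 log2 unit. These genes are near-identical copies, so their probe sets may report shared signal. What sets the arrays numbered 3 apart was not tested.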
